A study of Homo sapiens with 66 samples.

Results

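Very long genes were taken as protein-coding genes that span more than 300 kb from start to end in the gene annotation and whose counts per 1000000 reads (CPM) averaged 1 or more over all 66 libraries. They were thus chosen by annotated length and by measured level, and no fold change entered the choice. Of 57992 genes analysed, 816 were protein-coding and over 300 kb long, 427 of these reached 1 CPM, and 415 remained after 12 were left out by symbol. The other 389 long genes were below 1 CPM. The expression minimum used treated libraries as well as untreated ones, and 15 of the 415 genes had a mean below 1 CPM in the untreated libraries while 6 had one below 1 CPM after etoposide. The question was whether etoposide, which poisons topoisomerase II, lowers such genes relative to 4304 expressed protein-coding genes under 20 kb, called short genes here.

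The study treated 11 human acute myeloid leukaemia (AML) cell lines, F36P, HL60, KASUMI1, MOLM13, MONOMAC6, MV411, NB4, NOMO1, OCIAML2, OCIAML3 and THP1, for 24 h with etoposide at a concentration set for each cell line or with medium alone. Polyadenylated RNA was sequenced from 3 untreated and 3 etoposide libraries of each cell line, each made from pooled wells. As the dose was set by cell line, the effects of cell line and dose cannot be told apart. Each group held 3 libraries of 1 cell line, labelled as replicates. The libraries held between 17997404 and 24101670 reads on genes.

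Topoisomerase II cuts and reseals both strands of DNA and thereby releases the strain that builds up in front of a moving RNA polymerase. Etoposide traps the enzyme on the cut DNA, and trapped enzyme in a transcribed gene is an obstacle to the polymerase. A very long gene consists mostly of introns, takes a polymerase hours to cross, and yields a processed mRNA no longer than that of many other genes. Several of the longest human genes coincide with common fragile sites, regions that break when replication is impaired. Counts of polyadenylated mRNA after 24 h are levels, not rates of transcription, and a loss of RNA shared by all genes, or fewer cells, cannot be seen in values scaled to the reads of a library.

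The 415 genes ranged in length from 300.785 kb to 2242 kb, with a median of 428 kb. A median of 2.22% of this length was covered by exons, against 41.7% for the short genes. The exons of all transcripts together covered a median of 10.7 kb in long genes and 3.47 kb in short genes. The GC content over the whole gene had a median of 39.0% in long genes and 52.1% in short genes, and over the canonical transcript of 44.6% and 54.9%. Long genes were also less expressed, with a median of 13.7 CPM over the 66 libraries against 30.9 CPM. Length over the annotated gene is an upper limit, since the canonical transcript exceeded 300 kb for 331 of the 415 genes and was under 100 kb for 18.

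At the edge of the length rule, NOS1AP (300.785 kb) and SIPA1L3 (301.162 kb) were just inside, and PCBP3 (298.761 kb) and WDFY4 (298.084 kb) were just outside. At the edge of the expression rule, XKR6 (1.00147 CPM) and DNAH8 (1.01561 CPM) were just inside, and RAPGEF4 (0.994 CPM) and NLGN4Y (0.980 CPM) were just outside. The log2 fold changes of SIPA1L3 ran from -0.64 to 0.76 over 10 cell lines, and those of WDFY4 from -0.28 to 0.87.

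CDKN1A, the p53 target that encodes p21, was induced in 10 cell lines by a mean of 3.32 ± 1.03 (SD, n = 10 cell lines, FDR = 5.2e-05) on the log2 scale, and in OCIAML2 it rose from 44.7, 48.1 and 44.7 CPM by 0.73, short of a fold change of 2. In OCIAML2 edgeR's quasi-likelihood test called 0 of 13604 genes (0%) at a false discovery rate (FDR) below 0.05 and a fold change above 2, although 460 genes had an unadjusted p below 0.05, 5 of them long genes, and DESeq2 likewise called 0. Without the fold change minimum edgeR called 7 genes (0.0515%) induced and 0 repressed in OCIAML2, none of them long. The study discarded its etoposide data from OCIAML2. Values over cell lines refer to the other 10. All 6 myeloid markers examined were at 1 CPM or more in every untreated cell line but F36P, which had CEBPA below 1 CPM and expressed 5 of 5 erythroid markers.

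After etoposide long genes were lower against short genes in KASUMI1, and this difference was small or of the other sign in most of the other cell lines. In KASUMI1 the median log2 fold change of the 305 long genes tested was -0.51, and that of the short genes was -0.02, a difference of -0.49. In F36P the 378 long genes tested had a median of -0.27 and the short genes of 0.02, a difference of -0.28. MONOMAC6 followed with a difference of -0.17. In MOLM13 the sign was opposite, with a median of 0.16 for 306 long genes and -0.03 for short genes, a difference of 0.19. In the other 6 cell lines the difference lay between -0.07 in MV411 and 0.10 in NB4, and in OCIAML2 it was 0.02. Over 10 cell lines the difference was -0.08 ± 0.19 (SD), below 0 in 6 and above 0 in 4, and this mean was smaller than its own spread.

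The same difference was computed for each library against the untreated libraries of its cell line, to set the effect beside the spread between replicates. The KASUMI1 untreated libraries were at 0.21, 0.02 and -0.21 (log2, long minus short), and the etoposide libraries were at -0.31, -0.70 and -0.38, with no overlap. The MOLM13 untreated libraries were at 0.04, -0.04 and 0.02, and the etoposide libraries were at 0.27, 0.07 and 0.14, again with no overlap but on the other side of 0. The F36P untreated libraries spread from -0.31 to 0.33, wider than in any other cell line, and the etoposide libraries at -0.09, -0.34 and -0.32 overlapped them. In MONOMAC6 the untreated libraries ran from -0.10 to 0.14 and the etoposide libraries from -0.22 to -0.08. This overlap was narrow, so the unlike baselines leave it undecided whether the MONOMAC6 groups were separate. Replicate 3 weighed most in F36P, where the difference was -0.07 without replicate 3 of both groups and -0.45 without replicate 1. In MOLM13 the difference was 0.10 without replicate 1.

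**Figure D1:**
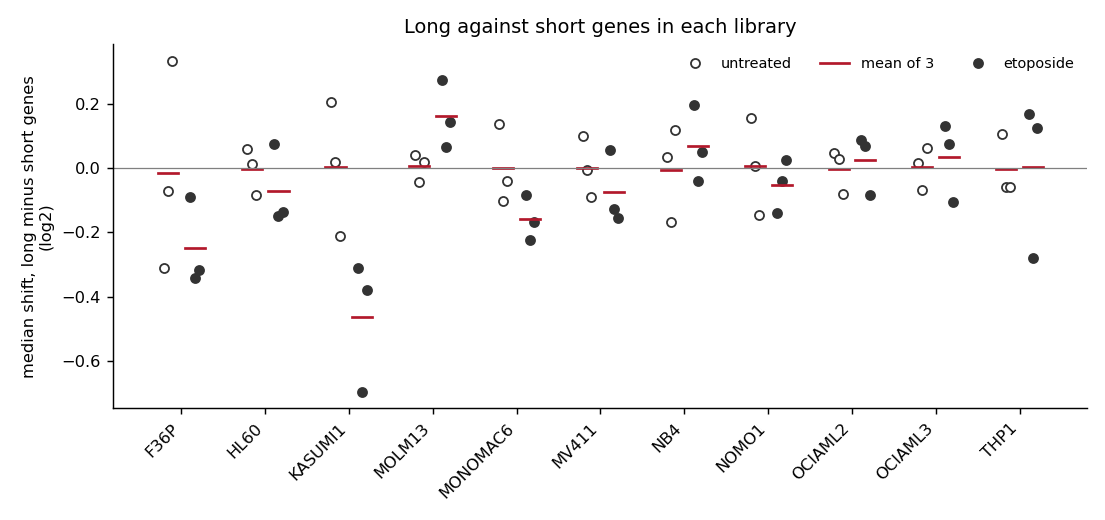
Median log2 shift of long genes less that of short genes in each of 66 libraries, untreated (open) and etoposide (filled), with the mean of 3 as a bar. Untreated libraries are set against the other 2 of their cell line and etoposide libraries against all 3, which widens the untreated spread. On these baselines only in KASUMI1 (lower) and MOLM13 (higher) do the etoposide libraries lie clear of the untreated ones.

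The share of all reads that fell on the 415 genes weighs genes by their abundance. In F36P it was 1.20%, 1.30% and 1.55% untreated and 0.862%, 0.803% and 0.804% after etoposide. In KASUMI1 it was 1.32%, 1.24% and 1.16% untreated and 0.896%, 0.697% and 0.859% after etoposide. Both pairs of groups were separate. In MONOMAC6 the share went from between 1.42% and 1.49% to between 1.31% and 1.36%, and in MOLM13 from between 1.13% and 1.16% up to between 1.21% and 1.34%. In the remaining 7 cell lines the ranges of the groups overlapped.

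Long genes were called repressed about 4 times as often as all genes in F36P and KASUMI1. In F36P 105 of 378 long genes tested (27.8%) were repressed, at FDR below 0.05 and a fold change above 2, against 6.67% of all genes tested and 6.21% of short genes. In KASUMI1 78 of 305 long genes (25.6%) were repressed, against 6.52% of all genes and 7.28% of short genes. These 183 calls made up most of the 258 repressed calls of long genes in 10 cell lines (8.05% of 3206 pairs of gene and cell line, against 3.95% of all pairs tested). The 342 induced calls were 10.7% of pairs, against 11% of all pairs. F36P had 111 of 378 long genes called induced (29.4%), against 24.2% of all genes and 18.8% of short genes. Of these 111, 95 had an untreated mean below 1 CPM, and genes this low can enter the test through the etoposide libraries alone. Nothing is therefore read from the induced share in F36P. KASUMI1 induced 23 of 305 (7.54%), against 14.6% of all genes and 13% of short genes. The induced share in KASUMI1 was closer to that of all genes with DESeq2 run without a filter on low counts, which induced 45 of 388 long genes (11.6%), against 12.7% of all genes, and repressed 86 (22.2%, against 4.69%). Scaling to library size alone moved the split over the 10 cell lines from 258 repressed and 342 induced to 185 repressed and 384 induced. With that scaling KASUMI1 repressed 50 long genes (16.4%, against 4.16% of all genes) and F36P 73 (19.3%, against 3.77%).

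In the other 8 cell lines between 0.833% (THP1) and 5.13% (MONOMAC6) of the long genes tested were repressed, and in THP1 and MOLM13 this share was below that of all genes. In MONOMAC6 16 of 312 long genes were repressed (5.13%, against 4.47% of all genes) and 16 were induced (5.13%, against 8.53%). In MOLM13 6 of 306 were repressed (1.96%, against 3.36%) and 30 were induced (9.80%, against 8.58%). In NB4 14 of 283 were repressed (4.95%, against 4.80%) and 36 were induced (12.7%, against 13.1%). None of these 3 cell lines showed an excess of repression like that in F36P or KASUMI1. NOMO1 repressed 18 of 371 (4.85%, against 4.42%) and induced 26 (7.01%, against 8.33%). MV411 repressed 8 of 287 (2.79%, against 2.63%) and induced 22 (7.67%, against 12.5%). OCIAML3 repressed 6 of 326 (1.84%, against 1.34%) and induced 33 (10.1%, against 7.17%). HL60 and THP1 repressed the fewest long genes. HL60 repressed 4 of 278 (1.44%, against 1.23%) and induced 16 (5.76%, against 5.34%). THP1 repressed 3 of 360 (0.833%, against 3.46%) and induced 29 (8.06%, against 6.38%).

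Without the fold change minimum, the smaller shift in MONOMAC6 and the opposite one in MOLM13 came into view. In KASUMI1 181 of 305 long genes (59.3%) were then repressed, against 28.5% of all genes tested. In MONOMAC6 138 of 312 (44.2%) were repressed, against 30.5%, and in F36P 168 of 378 (44.4%), against 24.8%. In MOLM13 51 of 306 (16.7%) were repressed, against 28.1%, and 116 (37.9%) were induced, also against 28.1%. Induced long genes were 42 in KASUMI1 (13.8%, against 31.4%), 74 in MONOMAC6 (23.7%, against 31.8%) and 135 in F36P (35.7%, against 34.8%). MV411 repressed 105 of 287 (36.6%, against 30.4%) and induced 82 (28.6%, against 33.4%). NB4 repressed 83 of 283 (29.3%, against 28.8%) and induced 103 (36.4%, against 31.1%). NOMO1 moved in the same directions as MV411 and repressed 110 of 371 (29.6%, against 23.9%) and induced 82 (22.1%, against 28.5%). HL60 repressed 53 of 278 (19.1%, against 15%) and induced 43 (15.5%, against 17.5%). OCIAML3 repressed 60 of 326 (18.4%, against 18.1%) and induced 89 (27.3%, against 22.5%), and THP1 repressed 52 of 360 (14.4%, against 15.9%) and induced 61 (16.9%, against 16.1%).

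The fall in KASUMI1 set in above 100 kb and was larger in longer classes. Median log2 fold changes in KASUMI1 were -0.02 under 20 kb (3940 genes), 0.04 at 20 to 50 kb, 0.03 at 50 to 100 kb and -0.13 at 100 to 300 kb (1789 genes). They were -0.48 at 300 to 500 kb (214 genes), -0.59 at 500 to 1000 kb (82 genes) and -0.97 over 1000 kb (9 genes). The repressed share rose from 7.38% at 100 to 300 kb to 22.4%, 31.7% and 44.4% in the 3 long classes. F36P followed the same course up to 500 kb, with medians of -0.22 at 100 to 300 kb and -0.46 at 300 to 500 kb (253 genes), and then turned to 0.10 at 500 to 1000 kb (108 genes) and 0.79 over 1000 kb (17 genes). In MOLM13 the 3 long classes had medians of 0.15, 0.24 and 0.18. In HL60 no length class was further from 0 than -0.05.

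With the expression minimum raised to 10 CPM over the 66 libraries, no F36P median was above 0, but classes over 500 kb were still less lowered. The F36P medians were then -0.35 at 100 to 300 kb, -0.76 at 300 to 500 kb (164 genes), -0.59 at 500 to 1000 kb (53 genes) and -0.20 over 1000 kb (4 genes). The induced share was 14% at 300 to 500 kb and 30.2% at 500 to 1000 kb. The long minus short difference with this minimum was -0.58 in F36P, and with long genes taken over 500 kb at the original minimum it was 0.12. Across single genes the relation was weak. The Spearman correlation between length and log2 fold change over protein-coding genes was -0.06 in KASUMI1 and -0.07 in F36P, and within the long genes -0.06 and 0.06. Over protein-coding genes it was -0.05 in HL60 and, further from 0, 0.12 in OCIAML2, where no gene was called. These coefficients describe genes of the same 6 libraries, which are not independent replicates and which differ in GC content and level as well as length.

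Length of the canonical transcript separated the long genes further in KASUMI1. The 66 genes tested whose canonical transcript was 300 kb or less had a median of -0.22, against -0.65 for those above 300 kb. In F36P the medians were 0.03 for 71 genes and -0.37, and in MOLM13 they were -0.11 for 59 genes and 0.21. In MONOMAC6 they were -0.19 for 62 genes and -0.16, and in HL60 -0.11 for 57 genes and -0.04. In neither MONOMAC6 nor HL60 were the genes with longer canonical transcripts the lower ones.

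The falls in F36P lay among long genes that were abundant in the cell line. Of long genes with a mean of 10 CPM or more over the 6 F36P libraries, 100 of 204 were repressed (49%) and 1 was induced (0.49%). Their median log2 fold change was -0.98. Short genes at that level had a median of -0.14, so the difference was -0.84. Of these 3004 short genes 214 were repressed (7.12%), and 9.59% were induced. At 1 to 10 CPM 5 of 108 long genes were repressed (4.63%, against 4.03% of short genes) and 49 were induced (45.4%, against 40.4%). Below 1 CPM 61 of 66 long genes and 120 of 157 short genes were induced, but a gene this low can pass the minimum on counts through the etoposide libraries alone, so nothing is read from these shares. Of the 111 induced long genes, 95 had an untreated mean below 1 CPM and 11 had 0 reads in all 3 untreated libraries.

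In KASUMI1 the abundant long genes were also the lowest. Long genes at 10 CPM or more had a median of -0.76 in KASUMI1, against -0.10 for short genes. Of these 186 long genes 65 were repressed (34.9%, against 7.64% of short genes) and 2 were induced (1.08%, against 6.99%). At 1 to 10 CPM the median of 103 long genes was -0.21 and that of short genes was 0.34. Below 1 CPM 9 of 16 long genes (56.2%) and 51.2% of short genes were induced, with the same limit as in F36P. In MOLM13 the 189 long genes at 10 CPM or more had a median of 0.15 and the short genes of -0.07. In MONOMAC6 they were at -0.18 and -0.04, and in the other 6 cell lines the difference at this level lay between -0.09 and -0.0026 (log2).

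Other measures moved in the same libraries, and their part in these values was not tested. The share of reads from mitochondrial genes went from between 5.26% and 5.90% to between 6.06% and 7.23% in F36P, and from between 6.27% and 6.43% to between 7.11% and 7.34% in KASUMI1. It rose as well in MOLM13, from between 5.17% and 5.68% to between 7.07% and 7.44%, where long genes were higher. The mitochondrial share also rose without overlap in MONOMAC6, MV411, OCIAML3 and THP1, and the groups overlapped in HL60, NB4, NOMO1 and OCIAML2. The summed level of the 6 myeloid markers went in KASUMI1 from 27431 to 13895 CPM, and that of the 5 erythroid markers in F36P went from 6643 to 4142 CPM. The myeloid sum also fell in HL60 (8274 to 3950 CPM), NB4 (17005.5 to 4826 CPM) and NOMO1 (3286 to 1580 CPM). There the long minus short difference was -0.07, 0.10 and -0.06. In MOLM13 the myeloid sum rose from 2800 to 6427 CPM. Short genes with a canonical transcript of at most 48.7% GC, the upper quartile of long genes, were also examined, a set not matched in GC to the long genes. In the KASUMI1 etoposide libraries these short genes had median shifts of 0.02, 0.02 and -0.02, where long genes were at -0.42, -0.59 and -0.42. In those of F36P they were at 0.03, -0.08 and -0.11 and long genes at -0.11, -0.30 and -0.29. In MONOMAC6 they were at -0.03, -0.10 and -0.08 and long genes at -0.10, -0.19 and -0.16, and in MOLM13 at -0.12, -0.22 and -0.18 and long genes at 0.18, 0.08 and 0.15.

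**Figure D2:**
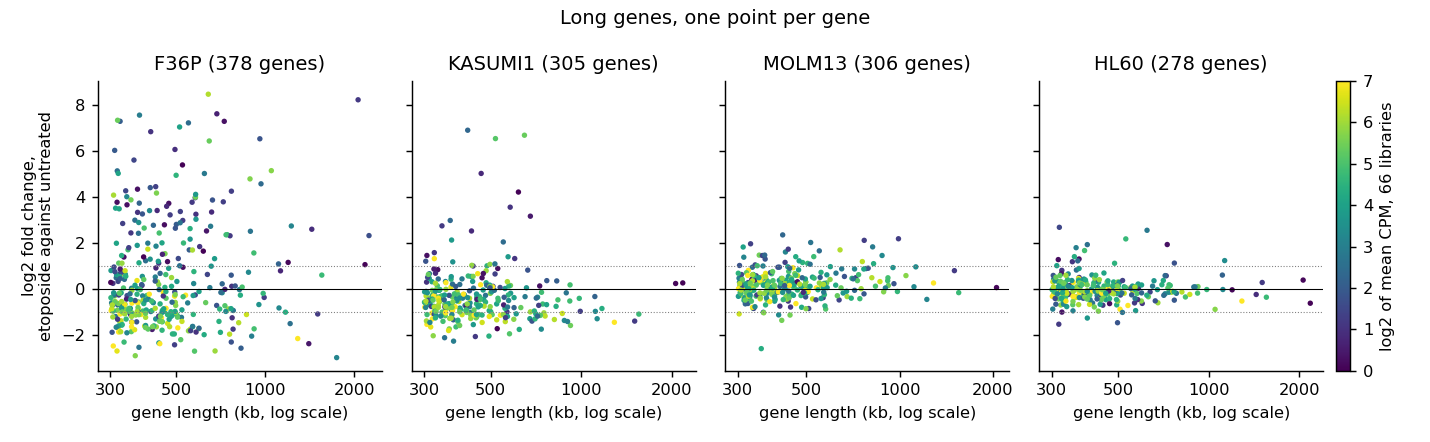
Log2 fold change against gene length (log scale) for each long gene tested in F36P, KASUMI1, MOLM13 and HL60, coloured by mean expression over the 66 libraries, with dotted lines at a fold change of 2. In KASUMI1 227 of 305 points lie below 0, in MOLM13 113 of 306, and F36P holds both the deepest falls and the largest rises.

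F36P and KASUMI1 repressed partly the same long genes. The 43 genes repressed in both were 41% of the 105 in F36P and 55.1% of the 78 in KASUMI1, and 86 of the 105 and 73 of the 78 could be tested in the other cell line. Over all genes tested, the genes repressed in both were 40.9% and 46.6% of those in F36P and KASUMI1, and over short genes 58.4% and 50.9%. The log2 fold changes in F36P and KASUMI1 had a Pearson correlation of 0.36 over 289 long genes and 0.65 over short genes, across genes that share libraries. The calls were opposite for 3 genes repressed in F36P and induced in KASUMI1 and for 9 genes with the reverse. In MOLM13 the median log2 fold change of the genes repressed in F36P was 0.15 and that of the genes repressed in KASUMI1 was 0.14, both above 0. In HL60 they were -0.10 and -0.13, and in NB4, where the long genes as a whole were at 0.09, they were -0.20 and -0.27. Altogether 176 long genes were repressed in at least 1 of 10 cell lines (42.4%, against 17% of all 19601 genes tested in at least 1), and 183 were induced in at least 1 (44.1%, against 36.2%). In different cell lines 58 were both (14%, against 3.68%), and 114 were never called (27.5%, against 50.5%).

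Over the 10 cell lines the long genes had a median close to that of other genes, and fewer of them passed the test in either direction. With limma on 1 log2 fold change per cell line, 53 of 415 long genes were lower at FDR below 0.05 (12.8%, against 18.1% of 14022 genes) and 62 were higher (14.9%, against 24.2%). Short genes were lower in 848 of 4304 cases (19.7%) and higher in 1160 (27%). The median of the mean log2 fold changes was 0.10 for long genes, 0.08 for short genes and 0.07 for all genes. Long genes differed more between cell lines, with a median SD over cell lines of 0.63 against 0.36 for short genes and 0.38 for all genes. They were also less expressed (median 13.7 CPM, against 30.9 CPM for short genes). The part of level in this spread and in the counts past the test was not tested. Only 19 long genes (4.58%) were lower in each of the 10 cell lines and 12 (2.89%) were higher in each, against 9.29% and 10.3% of short genes.

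Among long genes past the test over 10 cell lines, the lowest means were those of KCNQ5, NREP, ACACA, STAG1, ARHGAP15 and SCFD2. KCNQ5 (chr6:72621792-73198853, plus strand, 577 kb), a voltage-gated potassium channel subunit, had the lowest mean, -1.16 ± 0.75 (SD, n = 10 cell lines, FDR = 0.0011). In F36P it was at 47.7, 53.8 and 63.6 CPM untreated and 8.87, 8.73 and 7.73 CPM after etoposide (log2 fold change -2.70 ± 0.15 (SE), FDR = 6.8e-07). In KASUMI1 it was at 101, 83.7 and 77.2 CPM untreated and 27.02, 18.9 and 21.8 CPM after etoposide (log2 fold change -1.95 ± 0.15 (SE), FDR = 5.0e-06). Etoposide libraries lay below untreated ones in each cell line but OCIAML2, where the 6 libraries lay between 37.4 and 45.7 CPM, and in MV411 the gene was below 1 CPM and not tested. Even in HL60, where the change was smallest, KCNQ5 went from 70.01, 66.1 and 62.9 CPM to between 56.7 and 59.9 CPM, without passing the test (log2 fold change -0.20 ± 0.09 (SE), FDR = 0.11).

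NREP (chr5:111662621-111997464, minus strand, 335 kb), a small intracellular protein first described in nerve regeneration, was repressed in 5 cell lines, as many as any long gene. Its mean was -0.98 ± 0.44 (SD, n = 10 cell lines, FDR = 1.5e-04), and its smallest change was in KASUMI1. In NOMO1 it was at 311, 334 and 293 CPM untreated and 105, 75.8 and 102 CPM after etoposide (log2 fold change -1.73 ± 0.12 (SE), FDR = 5.3e-07). In KASUMI1 it was at 212, 199 and 221 CPM untreated and 168, 158 and 154 CPM after etoposide (log2 fold change -0.40 ± 0.08 (SE), FDR = 0.0013). The canonical transcript of NREP spans only 27.9 kb, so that the annotated length of the gene is not that of its main transcript.

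ACACA (chr17:37084992-37406836, minus strand, 322 kb) encodes acetyl-CoA carboxylase, the rate-limiting enzyme of fatty acid synthesis, and was repressed in 4 cell lines with a mean change of -0.94 ± 0.47 (SD, n = 10 cell lines, FDR = 2.7e-04). In KASUMI1 it was at 106, 95.1 and 84.3 CPM untreated and 27.3, 18.7 and 23.6 CPM after etoposide (log2 fold change -2.03 ± 0.14 (SE), FDR = 3.3e-06). In NB4 it was at 104, 91.7 and 103 CPM untreated and 41.1, 39.9 and 36.98 CPM after etoposide (log2 fold change -1.34 ± 0.09 (SE), FDR = 4.5e-09). No etoposide library overlapped the untreated ones in any of the 10 cell lines, also where the fold change stayed below 2.

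STAG1 (chr3:136336236-136752403, minus strand, 416 kb), a subunit of the cohesin ring, was repressed in 5 cell lines with a mean change of -0.91 ± 0.51 (SD, n = 10 cell lines, FDR = 5.2e-04). In MV411 it was at 60.04, 61.3 and 59.4 CPM untreated and 28.1, 21.9 and 19.6 CPM after etoposide (log2 fold change -1.38 ± 0.10 (SE), FDR = 4.6e-10). In F36P the untreated libraries were far apart, with 22.4, 35.8 and 57.4 CPM untreated and 14.4, 14.3 and 8.31 CPM after etoposide (log2 fold change -1.64 ± 0.37 (SE), FDR = 0.0063). In MONOMAC6 and NB4 the groups overlapped.

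ARHGAP15, a GTPase-activating protein for RAC, had a mean of -0.85 ± 0.61 (SD, n = 10 cell lines, FDR = 0.0021) and was repressed in F36P, where it was at 36.9, 56.2 and 94.6 CPM untreated and 10.4, 9.63 and 8.93 CPM after etoposide (log2 fold change -2.70 ± 0.34 (SE), FDR = 3.2e-04), and in MONOMAC6 (log2 fold change -1.01 ± 0.06 (SE), FDR = 5.9e-08). SCFD2, a member of the Sec1 family of vesicle fusion proteins, had a mean of -0.84 ± 0.66 (SD, n = 10 cell lines, FDR = 0.0037) and was repressed in 4 cell lines, most deeply in KASUMI1, where it was at 49.1, 46.98 and 46.8 CPM untreated and 10.7, 12.6 and 11.2 CPM after etoposide (log2 fold change -2.05 ± 0.10 (SE), FDR = 4.8e-07). SCFD2 overlapped between groups in MOLM13 and THP1, and ARHGAP15 was lower in both without a call, at -0.33 and -0.75.

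The long genes with the highest means included several with almost no untreated reads. CREB5 (chr7:28299321-28825894, plus strand, 527 kb), a transcription factor that binds cyclic AMP response elements, had the highest mean, 1.91 ± 1.99 (SD, n = 10 cell lines, FDR = 0.014). In THP1 it was at 0, 0.0515 and 0 CPM untreated and 4.98, 4.58 and 5.15 CPM after etoposide, with 1 untreated read in all, so that no fold is given. In NOMO1 it was at 2.21, 1.39 and 1.46 CPM untreated and 23.04, 38.1 and 26.9 CPM after etoposide (log2 fold change 4.12 ± 0.25 (SE), FDR = 1.1e-06). It was induced in 5 cell lines and too low to be tested in 5, so its mean rests on the former.

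SPOCK1 (chr5:136975298-137598379, minus strand, 623 kb), a secreted proteoglycan, had a mean of 1.84 ± 1.14 (SD, n = 10 cell lines, FDR = 8.5e-04) and was induced in 5 cell lines. In F36P and NB4 these calls started from 4 and 6 untreated reads over 3 libraries. In OCIAML3 it was at 18.7, 20.5 and 20.1 CPM untreated and 38.9, 34.6 and 43.5 CPM after etoposide and just short of a fold change of 2 (log2 fold change 0.98 ± 0.10 (SE), FDR = 5.0e-05). In each of the 10 cell lines all etoposide libraries were above the untreated ones.

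PCNX2 and UST were induced in 7 cell lines each, the most of any long gene. In F36P these calls started from 8 and 16 untreated reads over 3 libraries. PCNX2 had a mean of 1.39 ± 0.84 (SD, n = 10 cell lines, FDR = 8.3e-04), and in MOLM13 it was at 5.01, 3.66 and 3.75 CPM untreated and 16.9, 14.01 and 13.3 CPM after etoposide (log2 fold change 1.83 ± 0.15 (SE), FDR = 4.0e-06). UST, which sulfates chondroitin and dermatan chains, had a mean of 1.35 ± 0.75 (SD, n = 10 cell lines, FDR = 7.1e-04), and in NOMO1 it was at 5.96, 5.70 and 4.43 CPM untreated and 13.3, 11.7 and 11.2 CPM after etoposide (log2 fold change 1.17 ± 0.14 (SE), FDR = 2.3e-05). In OCIAML2 the groups overlapped for both, with log2 fold changes of 0.07 and -0.15.

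MAML2, a coactivator of Notch, had a mean of 1.44 ± 0.63 (SD, n = 10 cell lines, FDR = 2.0e-04) and was induced in 6 cell lines. In HL60, KASUMI1 and MOLM13 these calls started from 16, 13 and 25 untreated reads. CDH23, a cadherin, had a mean of 1.56 ± 1.59 (SD, n = 10 cell lines, FDR = 0.012) and was induced in 5 cell lines, in KASUMI1 from 1 untreated read. In MV411 it was at 0.945, 1.03 and 1.20 CPM untreated and 6.96, 7.74 and 7.52 CPM after etoposide (log2 fold change 2.80 ± 0.18 (SE), FDR = 2.7e-12). SYNE2, the nuclear envelope protein nesprin 2, had a mean of 1.35 ± 1.65 (SD, n = 10 cell lines, FDR = 0.03) and was induced in F36P (3.60), KASUMI1 (5.03) and MONOMAC6 (2.92). These calls started from only 23, 8 and 17 untreated reads over 3 libraries, so the size of these changes is uncertain. The HL60 groups overlapped, between 3.26 and 6.04 CPM. KAZN, which encodes the cell junction protein kazrin, went both ways, being repressed in MONOMAC6, NB4, NOMO1 and THP1 and induced in F36P (log2 fold change 2.74 ± 0.43 (SE), FDR = 3.3e-04). Its F36P call started from 19 untreated reads.

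The 250 bases upstream of the RefSeq start are shown for the 2 lowest and the 2 highest of these genes that have an entry in RefSeq (GRCh38.p14), to set genes that moved in opposite directions beside each other. Capitals mark matches, on either strand, to TATAAA, to GGGCGG (the GC box bound by SP1), to CCAAT, to TGANTCA (the AP-1 site, N being any base) and to TGACGTCA (the cyclic AMP response element).
KCNQ5, chr6:72621814-72622063, plus strand: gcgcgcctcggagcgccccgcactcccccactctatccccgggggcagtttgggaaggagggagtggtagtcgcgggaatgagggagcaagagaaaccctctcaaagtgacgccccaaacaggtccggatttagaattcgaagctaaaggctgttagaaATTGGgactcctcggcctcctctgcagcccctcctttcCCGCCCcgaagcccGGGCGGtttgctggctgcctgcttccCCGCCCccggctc
NREP, chr5:111976933-111977182, minus strand: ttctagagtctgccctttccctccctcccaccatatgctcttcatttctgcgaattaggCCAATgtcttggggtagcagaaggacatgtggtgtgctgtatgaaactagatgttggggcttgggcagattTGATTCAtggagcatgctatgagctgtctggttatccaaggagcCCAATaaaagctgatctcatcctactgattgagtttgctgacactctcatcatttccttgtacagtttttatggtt
CREB5, chr7:28412268-28412517, plus strand: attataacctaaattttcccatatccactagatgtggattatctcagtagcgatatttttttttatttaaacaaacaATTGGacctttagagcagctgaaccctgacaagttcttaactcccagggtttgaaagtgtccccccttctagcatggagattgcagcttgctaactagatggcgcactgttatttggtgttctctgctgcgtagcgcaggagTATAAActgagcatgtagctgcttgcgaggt
CDH23, chr10:71396670-71396919, plus strand: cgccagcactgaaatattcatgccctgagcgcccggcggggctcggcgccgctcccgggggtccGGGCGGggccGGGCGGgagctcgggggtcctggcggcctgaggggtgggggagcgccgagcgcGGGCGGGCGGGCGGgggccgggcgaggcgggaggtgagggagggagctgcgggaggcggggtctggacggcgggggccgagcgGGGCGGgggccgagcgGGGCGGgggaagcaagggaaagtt

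The GC content of these stretches was 64% for KCNQ5, 45.2% for NREP, 42% for CREB5 and 80.8% for CDH23, so that low and high promoters in GC occurred among both the lowered and the raised genes. KCNQ5 held 3 GC boxes and CDH23 held 7, some of them overlapping. NREP held 1 match to TGANTCA and 2 to CCAAT, CREB5 held 1 TATAAA and 1 CCAAT, and KCNQ5 held 1 CCAAT. The RefSeq starts used here lie well inside the annotated span of NREP and CREB5 rather than at its end. The KCNQ5 stretch also lies inside the annotated span of its gene, close to the start, and the CDH23 stretch ends just before its gene. Promoter sequence was found for 336 of the 415 long genes, and their median GC content of 65.2% was close to the 64% of short genes, unlike the GC content of the whole genes. GGGCGG occurred in 60.4% of the long genes' promoters, in 66% of those of short genes and in 42.3% of all 27305 promoters. TATAAA occurred in 5.95%, 6.30% and 11.1%, and CCAAT in 27.4%, 37.4% and 33%. TGANTCA occurred in 3.27%, 4.52% and 6.60%, and TGACGTCA in 2.68%, 2.83% and 1.77%.

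By function, 164 of the 415 long genes were on at least 1 of 11 lists of roles. The counts of each list stand against 12.8% of the long genes and 18.1% of all genes lower over 10 cell lines, and 14.9% and 24.2% higher. In F36P 27.8% of long genes and 6.67% of all genes were repressed and 29.4% and 24.2% were induced, and in KASUMI1 25.6% and 6.52% were repressed. Several lists are small, and no list was tested against the other long genes. Not every gene fits the name of its list. CAMKMT and CDKAL1 are counted with the kinases, DLG2 with the metabolic genes and SPIDR with the ubiquitin pathway. SRGAP1, which was named with ARHGEF3 for a large mean change, had a mean of 1.22 ± 0.87 (SD, n = 10 cell lines, FDR = 0.0026) and ARHGEF3, a guanine nucleotide exchange factor, of 1.20 ± 1.09 (SD, n = 10 cell lines, FDR = 0.0074). ARHGEF3 rose in OCIAML3 from 9.25, 10.6 and 12.9 CPM to between 79.0 and 85.9 CPM, but was lower in KASUMI1 (log2 fold change -0.66 ± 0.09 (SE), FDR = 2.5e-04), and its canonical transcript spans 74.5 kb. DOCK2, the RAC activator of leukocytes and the most abundant long gene, was repressed in F36P (log2 fold change -1.24 ± 0.11 (SE), FDR = 7.6e-06) and KASUMI1. It was at 477, 452 and 428 CPM untreated and 219, 179.8 and 207 CPM after etoposide in KASUMI1 (log2 fold change -1.16 ± 0.09 (SE), FDR = 6.2e-06), and was called in no other cell line.

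Of 20 cytoskeletal linkers, 0 were lower and 4 were higher over 10 cell lines, with a median log2 fold change of 0.31, a count higher that was near the 24.2% of all genes. In F36P 11 of 20 were induced (29.4% of long genes, 24.2% of all genes) and 1 was repressed (6.67% of all genes). As 95 of the 111 long genes induced in F36P had an untreated mean below 1 CPM, nothing is read from this induced count. PALLD, an actin-bundling protein, had a mean of 1.22 ± 1.13 (SD, n = 10 cell lines, FDR = 0.0093) and was induced in F36P and KASUMI1. MACF1, which links microtubules to actin, was at 194, 292 and 499 CPM in the untreated F36P libraries, between 272 and 290.2 CPM after etoposide, and was called in no cell line (-0.11 ± 0.11).

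Of 24 genes on the metabolic and mitochondrial list, 7 were lower (18.1% of all genes) and 0 were higher (24.2%), with a median of -0.18. In KASUMI1 9 of 19 were repressed (25.6% of long genes, 6.52% of all genes) and in F36P 11 of 22 (27.8% and 6.67%). Beside ACACA, DPH6, an enzyme of diphthamide synthesis, had a mean of -0.77 ± 0.31 (SD, n = 10 cell lines, FDR = 2.6e-04) and was lower in each of the 10 cell lines. Of 15 vesicle traffic genes, 2 were lower and 2 were higher, and 7 of 14 were repressed in KASUMI1. TBC1D5, a regulator of Rab GTPases in retromer traffic, was at 127, 131 and 130.2 CPM untreated and 28.5, 28.8 and 29.8 CPM after etoposide in F36P (log2 fold change -2.16 ± 0.11 (SE), FDR = 3.5e-07) and higher in MOLM13 (log2 fold change 0.26 ± 0.06 (SE), FDR = 0.0051). DENND1A, an activator of Rab35, had a mean of -0.46 ± 0.68 (SD, n = 10 cell lines, FDR = 0.063), with log2 fold changes of -1.82 in F36P and 0.26 in MOLM13.

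Of 6 genes of RNA binding and processing, 2 were lower and 0 were higher, and 5 of 6 were repressed in KASUMI1 (25.6% of long genes, 6.52% of all genes). DIS3L2, a ribonuclease, had a mean of -0.47 ± 0.47 (SD, n = 10 cell lines, FDR = 0.016), and CELF2, a splicing regulator, of -0.43 ± 0.38 (SD, n = 10 cell lines, FDR = 0.0079). CELF2 was at 613, 557 and 551 CPM untreated and 287, 223 and 269.7 CPM after etoposide in KASUMI1 (log2 fold change -1.14 ± 0.10 (SE), FDR = 1.4e-05). Of 7 chromatin genes, 4 were lower and 0 were higher, with a median of -0.28. SND1, which binds RNA and acts as a coactivator, was at 616, 572 and 527 CPM untreated and 102, 114 and 114 CPM after etoposide in F36P (log2 fold change -2.38 ± 0.11 (SE), FDR = 2.3e-07) and overlapped between groups in MOLM13 and THP1. HDAC4, a class II histone deacetylase, had a mean of -0.47 ± 0.47 (SD, n = 10 cell lines, FDR = 0.014) but was higher in MOLM13 (log2 fold change 0.30 ± 0.08 (SE), FDR = 0.0071).

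Of 24 transcription factors and coactivators, 5 were lower and 5 were higher, near the 18.1% and 24.2% of all genes, and 11 of 22 were repressed in F36P (27.8% of long genes, 6.67% of all genes). BACH2, a transcriptional repressor of lymphocytes, had a mean of 1.31 ± 1.00 (SD, n = 10 cell lines, FDR = 0.0035), and in HL60 it was at 5.69, 6.97 and 5.61 CPM untreated and 17.2, 12.5 and 15.6 CPM after etoposide (log2 fold change 1.30 ± 0.16 (SE), FDR = 5.2e-05). Of 14 calcium channel and ion transport genes, 1 was lower (18.1% of all genes) and 5 were higher (24.2%), with a median of 0.37. CACNA1C, the L-type calcium channel subunit, and SLC8A1, a sodium and calcium exchanger, had means of 1.03 ± 1.17 and 1.06 ± 0.99. Both had 0 reads in untreated F36P and were at least 17.9-fold and 15.1-fold higher after etoposide, taking 3 reads over the 3 untreated libraries as the limit.

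Of 20 genes on the list of kinases, phosphatases and phosphodiesterases, 1 was lower and 2 were higher. PDE3A had a mean of 1.03 ± 1.41 (SD, n = 10 cell lines, FDR = 0.049), but it was higher in 6 cell lines and lower in 4. It was induced in 3 cell lines, and its mean over the untreated libraries was 0.780 CPM. In OCIAML3 it was at 4.28, 5.03 and 4.16 CPM untreated and 39.004, 37.9 and 34.2 CPM after etoposide (log2 fold change 3.04 ± 0.11 (SE), FDR = 5.9e-08). PDE1C had a mean of 0.78 ± 1.08 (SD, n = 10 cell lines, FDR = 0.059). Of 7 genes on the ubiquitin pathway list, 0 were lower and 1 was higher. The ubiquitin ligase NEDD4L was repressed in F36P and MOLM13 and induced in HL60, with a mean change of -0.53 ± 0.96 (SD, n = 10 cell lines, FDR = 0.12), and KLHL29 was called in F36P alone, where it had 0 untreated reads and was at least 18.01-fold higher.

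The 13 genes at common fragile sites had a median over 10 cell lines of 0.01, with 1 lower and 1 higher. In KASUMI1 4 of 9 were repressed (25.6% of long genes, 6.52% of all genes), with a median of -0.97. In F36P 3 of 12 were repressed, near the 27.8% of long genes, and 6 were induced (29.4% of long genes, 24.2% of all genes). Nothing is read from this induced count, as most long genes induced in F36P had an untreated mean below 1 CPM. FHIT, of the site FRA3B, was low and repressed in both, from 5.69, 5.99 and 6.69 CPM in KASUMI1 to between 2.12 and 2.67 CPM (log2 fold change -1.40 ± 0.15 (SE), FDR = 4.4e-05) and in F36P with log2 fold change -1.09 ± 0.25 (SE), FDR = 0.0032. WWOX, of FRA16D, was at 10.2, 9.56 and 10.1 CPM untreated and 4.81, 4.48 and 5.94 CPM after etoposide in KASUMI1, short of a fold change of 2 (log2 fold change -0.97 ± 0.13 (SE), FDR = 1.9e-04), and at 12.7, 12.7 and 12.8 CPM untreated and 12.6, 12.6 and 12.4 CPM after etoposide in HL60 (log2 fold change -0.02 ± 0.12 (SE), FDR = 0.91). IMMP2L, which encodes a mitochondrial inner membrane peptidase, was the 1 that was lower over 10 cell lines, at -0.68 ± 0.63 (SD, n = 10 cell lines, FDR = 0.012), and was repressed in F36P, KASUMI1 and MV411.

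GPHN, which encodes gephyrin, was repressed in KASUMI1 (log2 fold change -1.29 ± 0.10 (SE), FDR = 6.3e-06) and induced in F36P (log2 fold change 1.32 ± 0.24 (SE), FDR = 7.6e-04). PTPRG, a receptor phosphatase, was repressed in KASUMI1 from 91.2, 85.5 and 75.3 CPM to between 20.9 and 28.5 CPM (log2 fold change -1.75 ± 0.13 (SE), FDR = 4.0e-06). DPYD, which degrades pyrimidines, was repressed in F36P (log2 fold change -1.73 ± 0.37 (SE), FDR = 0.005) and higher in MOLM13 (log2 fold change 0.49 ± 0.10 (SE), FDR = 0.0013). LPP, AUTS2, DMD and DLG2 were induced in F36P, while NBEA, MACROD2 and WWOX were called in no cell line.

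The 5 longest genes were DMD (dystrophin, 2242 kb), DLG2 (2173 kb), CSMD1 (2059.6 kb), MACROD2 (2058 kb) and ROBO2 (1743 kb). DMD exceeded 5 CPM untreated in NOMO1 alone, where the groups overlapped at 24.9, 27.8 and 23.7 CPM untreated and 21.2, 25.6 and 27.2 CPM after etoposide (log2 fold change -0.05 ± 0.11 (SE), FDR = 0.76). CSMD1 was also highest in NOMO1, at 29.96, 25.2 and 26.3 CPM untreated and 19.01, 18.2 and 17.9 CPM after etoposide (log2 fold change -0.56 ± 0.10 (SE), FDR = 5.0e-04), and had 0 untreated reads in F36P, where it was at least 34.5-fold higher after etoposide. ROBO2, a receptor for Slit proteins, gave the deepest fall of the 5, at 122, 138 and 178 CPM untreated and 19.5, 18.2 and 17.5 CPM after etoposide in F36P (log2 fold change -2.99 ± 0.16 (SE), FDR = 5.4e-07). In NOMO1 the change of ROBO2 was smaller (log2 fold change -0.65 ± 0.11 (SE), FDR = 2.3e-04). Among the longest genes at over 20 CPM untreated, the groups thus overlapped for DMD in NOMO1, were separate for CSMD1 in NOMO1 and lay far apart for ROBO2 in F36P. The canonical transcript of ROBO2 spans 610 kb of its annotated length.

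TOP2A and TOP2B, which encode the targets of the drug and are not long genes, are given as a check. TOP2A rose in KASUMI1 (log2 fold change 1.12 ± 0.18 (SE), FDR = 4.5e-04) and fell in MOLM13 (log2 fold change -1.03 ± 0.18 (SE), FDR = 0.0017), and TOP2B was lower over 10 cell lines (-0.54 ± 0.31 (SD, n = 10 cell lines, FDR = 7.4e-04)) with overlapping groups in KASUMI1 (0.05).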

How the data were processed

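Per the labels and the methods, the authors prepared stranded mRNA libraries, aligned single-end reads with STAR 2.5.3a to GRCh38.p7 with gencode 25, and deposited raw counts of reads per gene, 1 table for each of 66 libraries. The counts were used as deposited, without 45 Y-chromosome copies of shared genes, which held 0 reads. Gene lengths, types and GC content were read from gencode 44 on GRCh38, which held 56948 of the 57992 genes; genes are matched by ID, and lengths may differ from gencode 25. Which strand was counted is not given in the sources used here, and 304 of 371 genes lying inside exons of the opposite strand had reads.

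Each cell line was fitted alone with edgeR 4.0.16 (filterByExpr with a minimum count of 10, TMM, robust quasi-likelihood test). The p-values were adjusted by Benjamini-Hochberg over the genes tested, and genes past FDR 0.05 and a fold change of 2 were called. CPM values are scaled by TMM within a cell line. Across cell lines limma 3.58.1 was run on 1 log2 fold change per cell line (prior count 2). Per-library shifts used log2(CPM + 0.5). DESeq2 1.42.0 was an alternative. All 3 tests were run on simulated data simpler than these, which checks the code and not the error rates for genes with few reads. The members, role lists and tests were chosen with earlier results of these data known, so no test was made of the long genes as a set, and differences between medians carry no p. Replicate libraries differed by more than sampling noise in all 66 pairs. Named genes were those with the 6 lowest and 6 highest means past limma, the 5 repressed and 5 induced in most cell lines, the 5 longest, the 3 most abundant, fragile site genes, the 2 largest mean changes of each role list, and neighbours of the thresholds, plus CDKN1A, TOP2A and TOP2B; 1 of these genes and 1 role list are not reported here. The labels number the replicates without giving their source, so p-values measure the spread between these libraries. Same-numbered libraries deviated together in MOLM13, MONOMAC6 and NB4 among the 10 cell lines (each correlation at least 0.11) and in OCIAML2. The split by level and the short genes with low GC were added after seeing the data. Alternatives are given in the closing section.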

Additional observations from a re-analysis of the deposited data

Results flagged for a closer look

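For 7 of the 48 named long genes, 1 of the 10 cell lines stood clear of the other 9 by Dixon's test on the log2 fold changes of the 10-cell-line comparison, and in each case this cell line was F36P. Chance flags about 1 in 20 of such checks, of which 49 were made. F36P was lowest for SND1 (-2.27, the others between -1.06 and 0.19), ARHGAP15 (-2.47, the others between -1.02 and -0.31) and DPYD (-1.50, the others between -0.14 and 0.53). F36P was highest for CSMD1 (4.43, the others between -1.15 and 0.93), LPP (2.39, the others between -0.08 and 1.00), MACROD2 (1.77, the others between -0.07 and 0.83) and GPHN (1.36, the others between -1.21 and 0.07). MACROD2 was too low in F36P for edgeR's test, and CSMD1 had 0 untreated reads there, so that its value depends on the prior count. The untreated F36P libraries were far apart for ARHGAP15 (36.9, 56.2 and 94.6 CPM) and DPYD (11.9, 19.6 and 33.5 CPM), and close together for SND1 (616, 572 and 527 CPM). The difference between long and short genes itself held no such outlier among the 10 cell lines.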

How the results depend on the processing

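The long minus short difference kept its sign in KASUMI1, MOLM13 and MONOMAC6 under all alternatives, and no named call changed direction in 1083 refits, of which 63 no longer passed. In F36P the difference was -0.84 with a mean of at least 5 CPM in the cell line, -0.58 with 10 CPM over the 66 libraries and 0.12 for genes over 500 kb. Without a filter on low counts, and with DESeq2, it was -0.30 in KASUMI1 and -0.18 in F36P. MV411 changed sign, to 0.025 without a filter and 0.018 with DESeq2, NB4 was 0.18 with both, and the mean over 10 cell lines was -0.022 and -0.023. In MOLM13 it was 0.27 for genes over 500 kb. Against short genes with low GC in the gene (a comparison added after seeing the data) it was 0.037 in HL60, 0.42 in MOLM13, -0.057 in MONOMAC6, 0.17 in MV411, 0.26 in NB4 and -0.22 in NOMO1, so HL60 and MV411 changed sign; the small differences of NOMO1, OCIAML3, THP1 and OCIAML2 changed sign under others. Against short genes with low GC in the transcript it was 0.34 in MOLM13 and 0.10 in MV411. The mean over 10 cell lines ran from -0.16 to 9.4e-05 and stayed within its SD; the causes were not tested.

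Leaving out each replicate number in turn gave F36P -0.45 to -0.07, HL60 -0.11 to -0.03, KASUMI1 -0.61 to -0.36, MOLM13 0.10 to 0.21, MONOMAC6 -0.17 to -0.14, MV411 -0.11 to -0.08, NB4 0.01 to 0.11, NOMO1 -0.14 to 0.03, OCIAML2 0.00 to 0.06, OCIAML3 -0.035 to 0.15 and THP1 -0.07 to 0.12.

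The 258 repressed and 342 induced calls became 1001 and 827 without a fold change minimum, 441 and 738 for genes over 200 kb and 93 and 122 for those over 500 kb. Induced calls were 86 with at least 5 CPM in the cell line and 115 with at least 10 CPM over the 66 libraries. The 53 lower and 62 higher genes over 10 cell lines became 129 and 150 over 200 kb and 11 and 16 over 500 kb, and 19 were higher with at least 10 CPM. Leaving out each replicate number gave 252 to 292 repressed and 320 to 343 induced calls, and 46 to 50 lower and 50 to 64 higher genes. Scaling to library size alone shifted the median of all genes by up to 0.25 (log2), by over 0.1 in 6 cell lines.

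With the replicate number as a block the calls were 255 and 338, the mean difference was -0.08, and no cell line's count moved by over 1.5 times.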
